A study of Mus musculus with 16 samples.

Results

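The genes described here encode the enzymes that add glucuronic acid or sulfate to drugs, hormones and bile acids, and the carboxylesterases that split esters. Genes were chosen by name: the annotated symbol begins with Ugt1a, Ugt2a, Ugt2b, Ugt3a, Sult or Ces followed by its number, and at least 1 probe was detected (detection p under 0.05) on 4 or more of the 16 arrays. The array annotation held 40 such genes with 56 probes, of which 26 passed: 10 UDP-glucuronosyltransferases (UGT), 5 sulfotransferases (SULT) and 11 carboxylesterases (CES), among 8386 genes tested in all. Of these 26 genes, 25 were detected on all 16 arrays. The exception was Ces1a, detected on 2 DADS, 2 garlic oil, 1 alcohol and 0 control arrays.

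Livers came from 16 male C57BL/6 mice, 4 in each of 4 groups that the labels call biological replicates. DADS mice drank an ethanol Lieber-DeCarli liquid diet, a model of alcoholic fatty liver, and received 15 mg/kg diallyl disulfide, an organosulfur compound of garlic, by gavage. Garlic oil mice drank the same ethanol diet and received 50 mg/kg garlic oil, a mixture rich in allyl sulfides. Alcohol mice drank the ethanol diet and control mice a pair-fed liquid diet without ethanol, and both received the vehicle alone. Every mouse was gavaged daily for 4 weeks with 0.1 ml olive oil as the carrier. RNA of whole liver was read on 1-colour Illumina BeadChips, so fewer cells of a type and less RNA per cell cannot be told apart. The doses of the garlic preparations differ and garlic oil is a mixture, so a difference between these groups is one between the preparations as given.

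UGT enzymes sit in the membrane of the endoplasmic reticulum and join glucuronic acid from UDP-glucuronic acid to a hydroxyl, carboxyl or amine group, which makes the product water-soluble. SULT enzymes of the cytosol carry out the matching reaction with sulfate from the donor PAPS. Carboxylesterases of the endoplasmic reticulum hydrolyse ester and amide drugs as well as lipid esters, and mice have a much expanded set of them in gene clusters. Ethanol metabolism, nuclear receptors such as CAR, PXR and PPAR alpha, and growth hormone are all known to act on these genes in rodent liver.

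For the 4 genes that changed between groups lying on the same chip, the 250 bases before the annotated gene start are printed 5′ to 3′ to show how the promoters relate (RefSeq, GRCm38.p6, plus strand). Capitals in Ces2a (chr8:104733753-104734002) and Ces2e (chr8:104926010-104926259) mark stretches of at least 10 bases that both promoters hold. Capitals in Ces3b (chr8:105083505-105083754) and Ugt3a1 (chr15:9279579-9279828) mark the motif TATAAA, the letters of a TATA box core. In Ugt3a1 it lies at the very end of the window, and a role as a TATA box was not tested in either gene.
Ces2a: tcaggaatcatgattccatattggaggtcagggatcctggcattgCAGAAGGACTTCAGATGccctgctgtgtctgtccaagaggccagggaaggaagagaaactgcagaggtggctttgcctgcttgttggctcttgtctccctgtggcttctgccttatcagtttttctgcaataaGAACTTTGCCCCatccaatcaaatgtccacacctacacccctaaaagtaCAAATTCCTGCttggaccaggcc
Ces2e: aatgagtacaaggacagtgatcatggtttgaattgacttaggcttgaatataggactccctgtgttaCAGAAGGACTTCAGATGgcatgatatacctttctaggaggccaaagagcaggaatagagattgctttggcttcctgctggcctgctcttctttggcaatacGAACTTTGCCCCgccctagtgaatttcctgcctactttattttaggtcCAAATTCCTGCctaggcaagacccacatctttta
Ces3b: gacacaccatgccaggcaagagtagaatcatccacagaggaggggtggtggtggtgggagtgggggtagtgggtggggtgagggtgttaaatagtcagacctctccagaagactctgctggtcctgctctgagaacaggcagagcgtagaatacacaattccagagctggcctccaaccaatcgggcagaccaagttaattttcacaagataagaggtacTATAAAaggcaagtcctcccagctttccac
Ugt3a1: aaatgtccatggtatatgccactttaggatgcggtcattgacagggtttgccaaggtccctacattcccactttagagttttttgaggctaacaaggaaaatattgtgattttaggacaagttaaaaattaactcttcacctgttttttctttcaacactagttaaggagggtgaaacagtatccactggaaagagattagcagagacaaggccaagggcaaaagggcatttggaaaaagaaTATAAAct
The Ces2a and Ces2e promoters shared 3 such stretches with 40 bases in all, the longest of 17 bases, in the same order along the promoter. Neither shared a stretch of this length with Ces3b or Ugt3a1. The motif TATAAA, searched on both strands, occurred once in Ces3b, once in Ugt3a1 and in 12.4% of 32851 windows of this length. AGGTCA, the half-site of many nuclear receptors, occurred once in Ces2a, in 0 of the other 3 and in 14.0% of windows. TTCNNNGAA (STAT5), TGACNNNGC (antioxidant response) and GCGTG (dioxin response) occurred in 0 of the 4, against 7.02%, 10.2% and 28.2% of windows. A match or its lack is a property of these letters alone. All 11 measured CES genes lie on chromosome 8, the UGT1A genes on chromosome 1, the UGT2A and UGT2B genes on chromosome 5 and both UGT3A genes on chromosome 15.

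By the array identifiers, DADS and garlic oil arrays lay on 1 chip and alcohol and control arrays on another. Alcohol against control and garlic oil against DADS are therefore comparisons within a chip, where position on the chip and group cannot be told apart. In the other comparisons chip and group cannot be told apart. Between 10631 and 11526 probes were detected per array, and arrays of a group correlated at 0.973 to 0.993. All 10 hepatocyte markers were detected on every array. Alcohol replicate 1 stood apart in 12 markers of pancreatic acinar cells, all 12 detected with a median log2 level of 15.27, against 2 to 4 detected and medians of 4.95 to 5.22 on the other 15 arrays. Calls that involve alcohol livers are therefore also given without it.

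**Figure D1:**
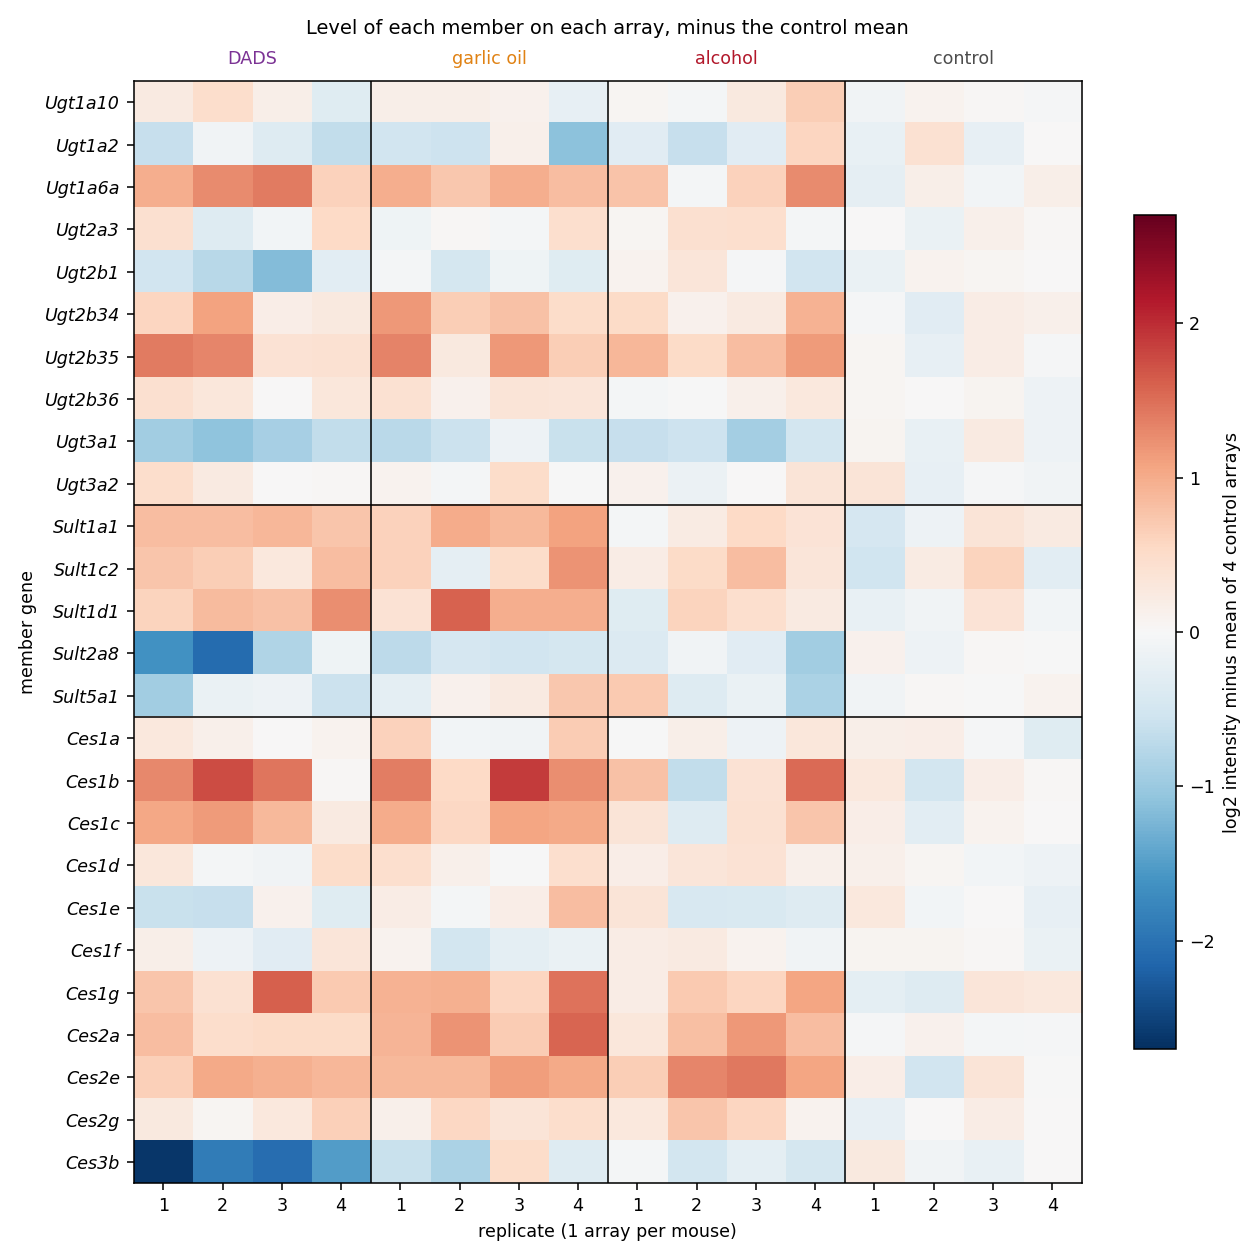
Log2 intensity of the 26 UGT, SULT and CES genes (rows) on the 16 arrays (columns, 1 per mouse), each minus the mean of that gene over the 4 control arrays, with red higher and blue lower. Ces3b is lowest on the 4 DADS arrays, while Ces2a and Ces2e are higher than the control mean on all 12 arrays of ethanol-fed mice.

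With ethanol feeding alone, 2 carboxylesterases of the CES2 group rose and 1 gene of the UGT3A group fell. Ces2e was 2.18-fold and Ces2a 1.72-fold higher in alcohol than in control livers, and Ugt3a1 was 1.56-fold lower. CES2 enzymes favour esters with a small acyl and a large alcohol part, and human UGT3A1 uses UDP-N-acetylglucosamine as its sugar donor. These 3 genes were 11.5% of the 26, against 3.58% of all genes tested in this comparison (limma, adjusted p under 0.05; 1.94% upward and 1.63% downward). The median log2 change was 0.23 over the 26 genes and -0.01 over all genes.

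Ces2e had log2 levels of 7.14, 7.52, 7.46 and 7.39 in DADS livers, 7.38, 7.37, 7.63 and 7.52 in garlic oil livers, 7.16, 7.82, 7.92 and 7.57 in alcohol livers, and 6.67, 5.98, 6.85 and 6.49 in control livers. Each ethanol-fed group lay wholly above the control arrays, and the ethanol-fed groups overlapped each other. The alcohol mean was 7.62 ± 0.34 and the control mean 6.50 ± 0.38 (SD, n = 4 each), a log2 change of 1.12 ± 0.18 (SE) with an adjusted p of 0.00221.

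Ces2a had log2 levels of 7.25, 6.90, 6.93 and 6.94 in DADS livers, 7.34, 7.62, 7.11 and 7.99 in garlic oil livers, 6.72, 7.24, 7.59 and 7.26 in alcohol livers, and 6.39, 6.52, 6.37 and 6.39 in control livers. The control arrays were tightly grouped and the lowest of the 16, and the alcohol arrays spread widely above them. The log2 change between alcohol and control was 0.78 ± 0.18 (SE, adjusted p = 0.025). Both CES2 genes read near the dim end of the range, where the added offset makes a fold smaller than it would be without one.

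Ugt3a1 had log2 levels of 12.02, 11.88, 12.07 and 12.30 in DADS livers, 12.23, 12.37, 12.83 and 12.37 in garlic oil livers, 12.34, 12.40, 12.05 and 12.47 in alcohol livers, and 13.04, 12.76, 13.21 and 12.83 in control livers. Control arrays were the higher ones, with no overlap with the alcohol or DADS arrays and a partial overlap with garlic oil replicate 3. The log2 change between alcohol and control was -0.65 ± 0.15 (SE, adjusted p = 0.023). Its neighbour and nearest relative Ugt3a2, whose human form uses UDP-glucose and UDP-xylose, differed by 0.08 on the log2 scale between alcohol and control (95% interval -0.26 to 0.42).

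5 further genes had an unadjusted p under 0.05 in alcohol against control without passing the adjusted threshold, all higher on average by the probe used. With the 3 called genes these were 8 of the 26, beside 18.1% of all genes tested. Ugt2b35 had a log2 change of 0.85 (adjusted p = 0.0708) with no overlap between the groups, and Ugt1a6a one of 0.65 (adjusted p = 0.109). The 2 other passing probes of Ugt1a6a went the other way, at -0.64 (adjusted p = 0.0945) and -0.85 (adjusted p = 0.0841). Ces2g, the other CES2 gene measured, had a log2 change of 0.43 (adjusted p = 0.157), Ces1g one of 0.64 (adjusted p = 0.18) and Ugt2b34 one of 0.45 (adjusted p = 0.27). A second Ces2g probe, detected on 13 arrays, gave -0.08 (adjusted p = 0.908). None of the 5 SULT genes passed, and 0 had an unadjusted p under 0.05. Without alcohol replicate 1 the same 3 genes passed, with log2 changes of 1.28 for Ces2e, 0.95 for Ces2a and -0.65 for Ugt3a1. Ces2a missed the threshold without any 1 control array, without alcohol replicate 3 or 4 and with no filter on low values, and Ugt3a1 missed it without control replicate 1, control replicate 3 or alcohol replicate 3 (highest adjusted p 0.0976 for Ces2a and 0.0921 for Ugt3a1).

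**Figure D2:**
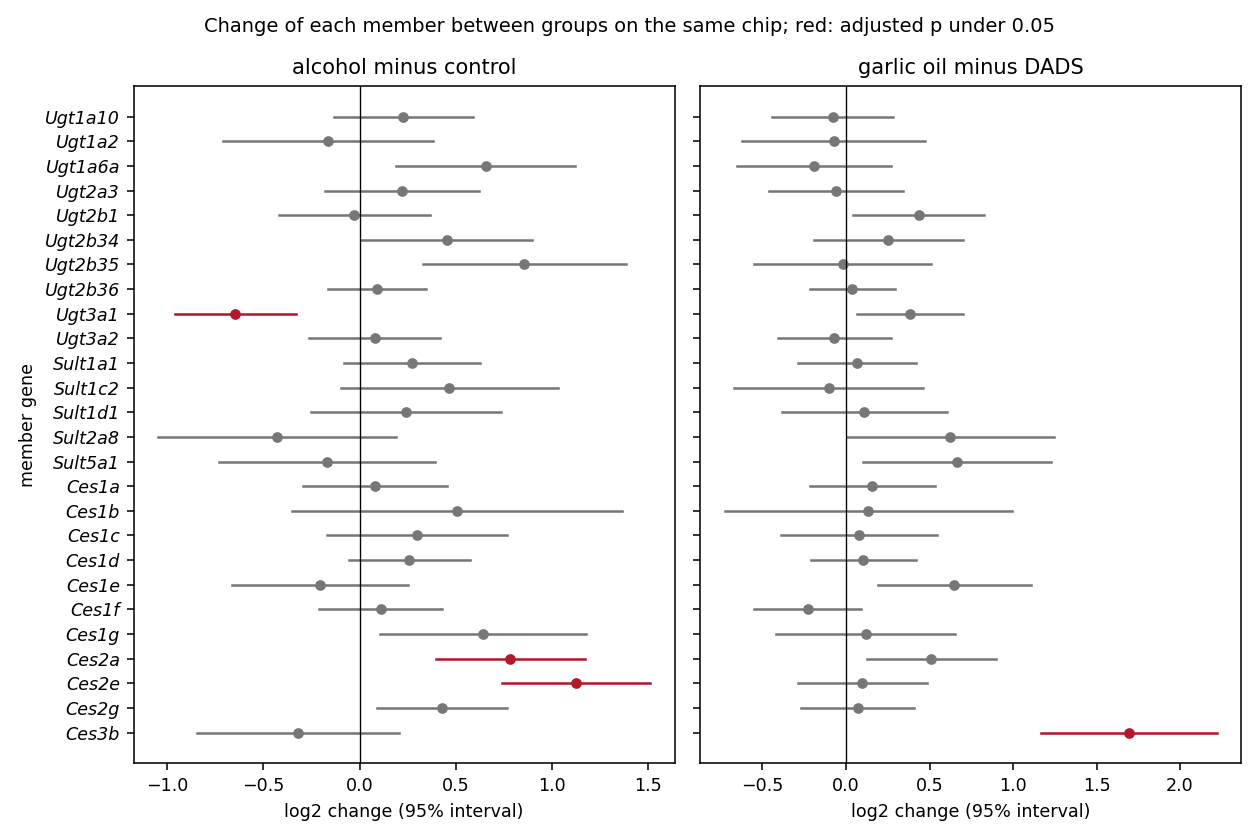
Log2 change of each of the 26 genes between groups on the same chip, alcohol minus control (left) and garlic oil minus DADS (right), as points with 95% intervals and red where the limma adjusted p was under 0.05. Ces2e, Ces2a and Ugt3a1 are red on the left at 1.12, 0.78 and -0.65, and Ces3b is red on the right at 1.69.

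Between DADS and alcohol livers a single gene of the 26 differed, the carboxylesterase Ces3b, which was 3.26-fold lower with DADS. This was 3.85% of the 26 genes, against 2.84% of all genes tested in DADS against alcohol (1.23% upward and 1.61% downward). Ces3b belongs to the CES3 group of liver esterases and lies between Ces3a and Ces4a on chromosome 8. The median log2 change was -0.09 over the 26 genes and 0.02 over all genes.

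Ces3b had log2 levels of 10.31, 11.05, 10.87 and 11.42 in DADS livers, 12.33, 12.09, 13.43 and 12.58 in garlic oil livers, 12.88, 12.45, 12.68 and 12.47 in alcohol livers, and 13.21, 12.85, 12.74 and 12.96 in control livers. The DADS arrays lay wholly below the other 12, and garlic oil, alcohol and control arrays overlapped. The mean was 10.91 ± 0.46 in DADS livers and 12.62 ± 0.20 in alcohol livers (SD, n = 4 each), a log2 change of -1.70 ± 0.25 (SE, adjusted p = 0.003). Without alcohol replicate 1 the log2 change was -1.61 (adjusted p = 0.00906), and without DADS replicate 4, the highest DADS array, it was -1.87 (adjusted p = 0.00102). Its other 2 passing probes gave -1.51 and -1.58.

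Ces3b was 3.23-fold higher with garlic oil at 50 mg/kg than with DADS at 15 mg/kg, the only one of the 26 genes to pass between these groups on 1 chip. It stands for 3.85% of the 26, against 1.85% of all genes tested in garlic oil against DADS (0.739% upward and 1.11% downward). The garlic oil mean was 12.61 ± 0.58 and the DADS mean 10.91 ± 0.46 (SD, n = 4 each), a log2 change of 1.69 ± 0.25 (SE, adjusted p = 0.00205), and its other probes gave 1.64 and 1.44. Garlic oil and alcohol livers differed by -0.01 on the log2 scale for Ces3b, with a 95% interval of -0.53 to 0.51. Every comparison of Ces3b with DADS passed under all 25 alternative settings, with log2 changes of 1.42 to 1.86 for garlic oil minus DADS.

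Marker levels of some other cell types also differed between DADS and garlic oil arrays. The summed red cell markers (4 with a probe) lay at 14234 to 20197 on DADS arrays and 47074 to 54363 on garlic oil arrays, with 17066 to 28272 on alcohol and 29762 to 32128 on control arrays (linear intensity). This sum mostly follows Hba-a1, by far the brightest of the 4. In the sum the alcohol range overlapped the DADS range. Hba-a1, Hbb-b2 and Slc4a1 each read highest on the garlic oil arrays. Alas2 lay at log2 levels of 8.60 to 9.98 on DADS, 10.29 to 10.94 on garlic oil, 10.58 to 11.11 on alcohol and 10.66 to 11.19 on control arrays. Its DADS arrays lay below all the others, as those of Ces3b did. The red cell membrane gene Slc4a1 was detected on none of the DADS and control arrays. The summed Kupffer cell and macrophage markers (7, all detected on every array) lay at 2561 to 6855 on DADS arrays and 7285 to 10440 on garlic oil arrays, with 7818 to 9405 on alcohol and 6813 to 8881 on control arrays. Here the DADS range just reached the control range. The summed endothelial markers overlapped between DADS (6329 to 12005) and garlic oil arrays (7633 to 10994), as did the stellate cell markers. The part of these cell types in the Ces3b difference was not tested.

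With Ces3b, 7 of the 26 genes had an unadjusted p under 0.05 in garlic oil against DADS, beside 16.8% of all genes tested. The 6 others were all higher with garlic oil and none passed the adjusted threshold. The log2 changes were 0.65 for Ces1e (adjusted p = 0.13), 0.51 for Ces2a (adjusted p = 0.162) and 0.38 for Ugt3a1 (adjusted p = 0.206). They were 0.67 for Sult5a1 (adjusted p = 0.214), 0.44 for Ugt2b1 (adjusted p = 0.242) and 0.62 for Sult2a8 (adjusted p = 0.292). Ces1e is egasyn, the esterase that holds beta-glucuronidase, the enzyme that reverses glucuronidation, in the endoplasmic reticulum. For Sult1a1 the interval of the difference between the preparations was -0.29 to 0.42 and for Ces2e -0.29 to 0.48 on the log2 scale, so these data limit a difference to that size without showing that the preparations act alike.

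Garlic oil with ethanol changed none of the 26 genes relative to ethanol alone at an adjusted p under 0.05 (limma), against 2.02% of all genes tested (0.692% upward and 1.32% downward). An unadjusted p under 0.05 was held by 5 of the 26, beside 18.5% of all genes tested. Among the 26, the smallest such p belonged to Sult1a1, the phenol sulfotransferase of liver. Sult1a1 had log2 levels of 13.98, 13.99, 14.06 and 13.90 in DADS livers, 13.78, 14.16, 14.02 and 14.24 in garlic oil livers, 13.10, 13.37, 13.69 and 13.53 in alcohol livers, and 12.71, 13.01, 13.50 and 13.39 in control livers. All 8 arrays of garlic-treated mice lay above all 8 of the others. The log2 change was 0.63 ± 0.17 for garlic oil against alcohol (SE, adjusted p = 0.0606) and 0.56 ± 0.17 for DADS against alcohol (SE, adjusted p = 0.0768). These comparisons share the alcohol arrays, and these 8 arrays also shared a chip.

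Sult1d1, a sulfotransferase of catecholamines in the mouse, had log2 levels of 10.18, 10.42, 10.36 and 10.82 in DADS livers, 9.95, 11.16, 10.55 and 10.55 in garlic oil livers, 9.24, 10.16, 10.03 and 9.81 in alcohol livers, and 9.38, 9.48, 9.93 and 9.49 in control livers. Both garlic-treated groups lay above the control arrays, and only the DADS arrays lay wholly above the alcohol arrays. The log2 change was 0.74 for garlic oil against alcohol (adjusted p = 0.102) and 0.63 for DADS against alcohol (adjusted p = 0.147). Without alcohol replicate 1 the changes against alcohol were smaller, 0.52 for Sult1a1 and 0.55 for Sult1d1 with garlic oil (adjusted p = 0.126 and 0.203), and 0.45 and 0.44 with DADS (adjusted p = 0.188 and 0.33). Sult1a1 passed in garlic oil against alcohol without control replicate 1 (adjusted p = 0.0483) and under 3 other settings. In DADS against alcohol it passed under 2 settings, one of them median scaling (adjusted p = 0.0257), under which Sult1d1 also passed (adjusted p = 0.0397). In garlic oil against alcohol Sult1d1 passed without garlic oil replicate 1 (log2 change 0.94, adjusted p = 0.0457). The other genes with an unadjusted p under 0.05 in garlic oil against alcohol were Ces1c with a log2 change of 0.61 (adjusted p = 0.152), Ces1e with 0.50 (adjusted p = 0.229) and Ces1f with -0.32 (adjusted p = 0.263).

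In DADS against alcohol 6 of the 26 genes had an unadjusted p under 0.05, beside 18.4% of all genes tested. Ces3b, Sult1a1 and Sult1d1 were among the 6. Of the others, Ugt2b1 had a log2 change of -0.65 (adjusted p = 0.0663), Sult2a8 one of -0.73 (adjusted p = 0.187) and Ces1c one of 0.53 (adjusted p = 0.202). Without alcohol replicate 1 these changes were -0.61, -0.71 and 0.55, and none passed. Without DADS replicate 4, Sult2a8 and Ugt2b1 passed as lower in DADS than in alcohol livers, at -1.08 (adjusted p = 0.0251) and -0.78 (adjusted p = 0.0422), and Sult2a8 passed as higher with garlic oil than with DADS, at 0.97 (adjusted p = 0.0484).

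**Figure D3:**
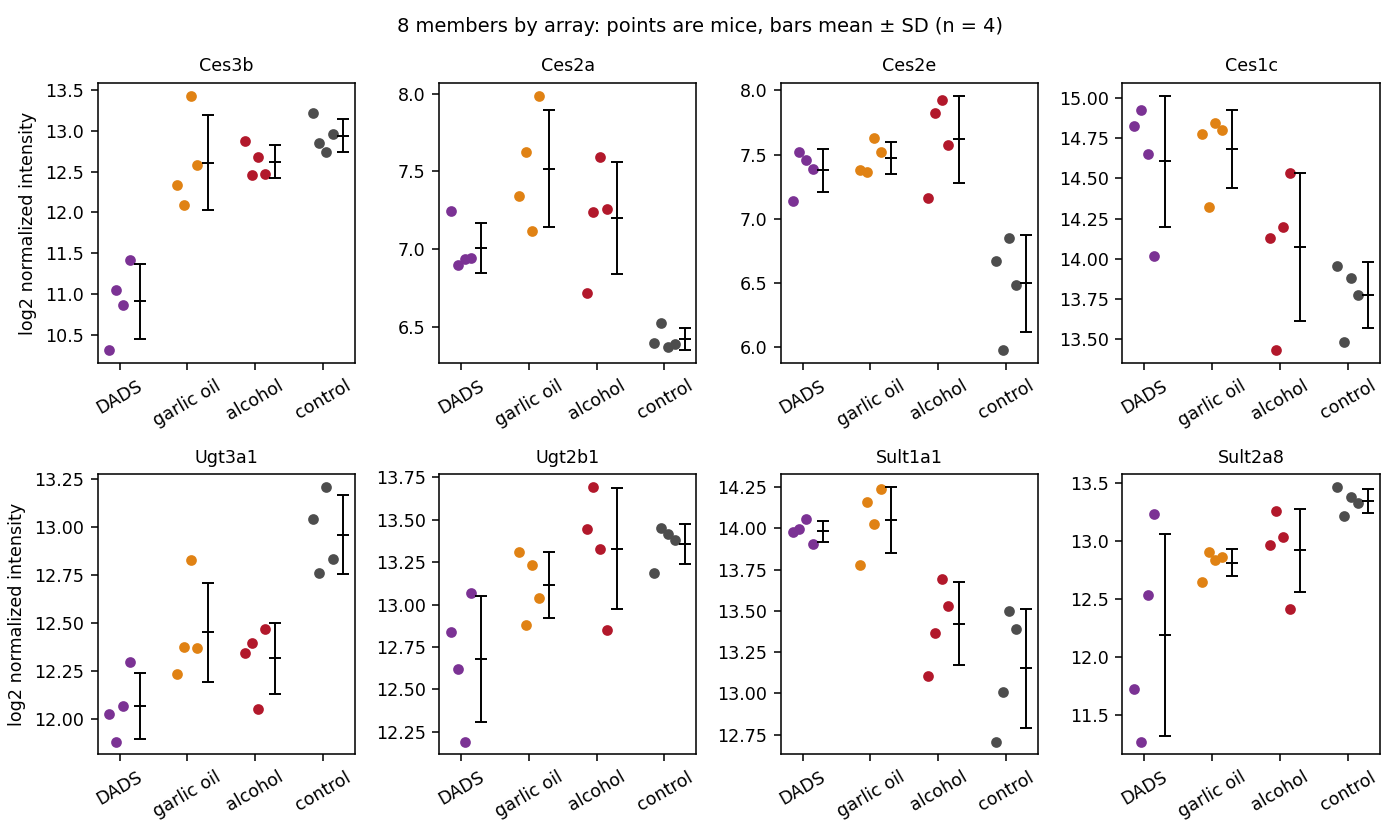
Log2 normalized intensity of 8 of the genes on each array (points, 1 per mouse) for DADS, garlic oil, alcohol and control livers, with mean ± SD (n = 4 each) as bars. Ces3b is low in DADS livers alone, Ces2a and Ces2e are low in control livers, and Sult1a1 is high in both garlic-treated groups.

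Set against pair-fed controls, the garlic-treated, ethanol-fed mice differed in many more of these genes, as they did in genes at large. In DADS against control 12 of the 26 passed, 8 higher and 4 lower, which is 46.2% against 15.9% of all genes tested (8.48% upward and 7.44% downward). In garlic oil against control 11 passed, 10 higher and 1 lower, which is 42.3% against 17.9% of all genes tested (8.56% upward and 9.29% downward). These comparisons combine ethanol, treatment and chip, and share the control arrays. The median log2 change over the 26 genes was 0.23 with DADS and 0.30 with garlic oil, against -0.00 and -0.04 over all genes tested. By family, 2 UGT genes rose and 2 fell with DADS, 2 SULT rose and 1 fell, and 4 CES rose and 1 fell. With garlic oil 3 UGT rose and 1 fell, 2 SULT and 5 CES rose and none of these fell.

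Among the UGT genes, Ugt2b35 and Ugt2b34, both of the steroid- and drug-conjugating UGT2B cluster, were higher in garlic-treated than in control livers. Ugt2b35 had log2 levels of 10.93, 10.84, 9.93 and 9.94 in DADS livers, 10.87, 9.80, 10.70 and 10.18 in garlic oil livers, 10.43, 10.05, 10.37 and 10.67 in alcohol livers, and 9.57, 9.31, 9.72 and 9.51 in control livers. All 12 ethanol-fed mice read above all 4 controls. Its log2 change against control was 0.88 with DADS (adjusted p = 0.0246) and 0.86 with garlic oil (adjusted p = 0.026), beside the 0.85 of alcohol alone that missed the threshold. Ugt2b34 had log2 levels of 10.28, 10.77, 9.87 and 9.96 in DADS livers, 10.86, 10.35, 10.48 and 10.19 in garlic oil livers, 10.21, 9.80, 9.93 and 10.63 in alcohol livers, and 9.66, 9.39, 9.90 and 9.82 in control livers. The garlic oil arrays lay wholly above the controls, and the log2 change was 0.78 with garlic oil (adjusted p = 0.0183) and 0.53 with DADS (adjusted p = 0.099).

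Ugt2b1, their neighbour in the cluster, ran the other way. It had log2 levels of 12.84, 12.62, 12.19 and 13.07 in DADS livers, 13.31, 12.88, 13.23 and 13.04 in garlic oil livers, 13.45, 13.69, 13.33 and 12.85 in alcohol livers, and 13.19, 13.45, 13.41 and 13.38 in control livers. The DADS arrays lay below the controls, at a log2 change of -0.68 (adjusted p = 0.0207). With garlic oil it was -0.24 (adjusted p = 0.386). Ugt3a1 fell against control by 0.89 with DADS (adjusted p = 0.000949) and by 0.51 with garlic oil (adjusted p = 0.0271) on the log2 scale.

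The probe used for Ugt1a6a, which conjugates small planar phenols, and the 2 other probes that passed for this gene went in opposite directions. The brightest, used here, had log2 levels of 12.21, 12.50, 12.62 and 11.84 in DADS livers, 12.19, 11.94, 12.21 and 12.06 in garlic oil livers, 11.99, 11.17, 11.84 and 12.50 in alcohol livers, and 10.99, 11.38, 11.14 and 11.37 in control livers, a log2 change against control of 1.07 with DADS (adjusted p = 0.00388) and 0.88 with garlic oil (adjusted p = 0.0116). The second had 8.80, 9.36, 8.63 and 8.98 in DADS livers, 9.61, 9.84, 9.99 and 9.36 in garlic oil livers, 9.71, 9.49, 9.82 and 10.48 in alcohol livers, and 10.54, 10.57, 10.66 and 10.30 in control livers. Its log2 change was -1.57 with DADS (adjusted p = 8.55e-05) and -0.81 with garlic oil (adjusted p = 0.0111), and it was lower in DADS than in alcohol livers at -0.93 (adjusted p = 0.0218). The third gave -1.56 with DADS (adjusted p = 0.000853) and -1.12 with garlic oil (adjusted p = 0.00715). All 3 probes were detected on all 16 arrays.

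UGT1A genes share their last exons and differ in the first, and the probes' sequences were not used here, so which transcripts each probe reads is not known from these data. Ugt1a6a therefore has no settled direction, and it is among the UGT genes counted as higher above. Of 6 genes with several passing probes, it was the only one with called probes of opposite sign.

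**Figure D4:**
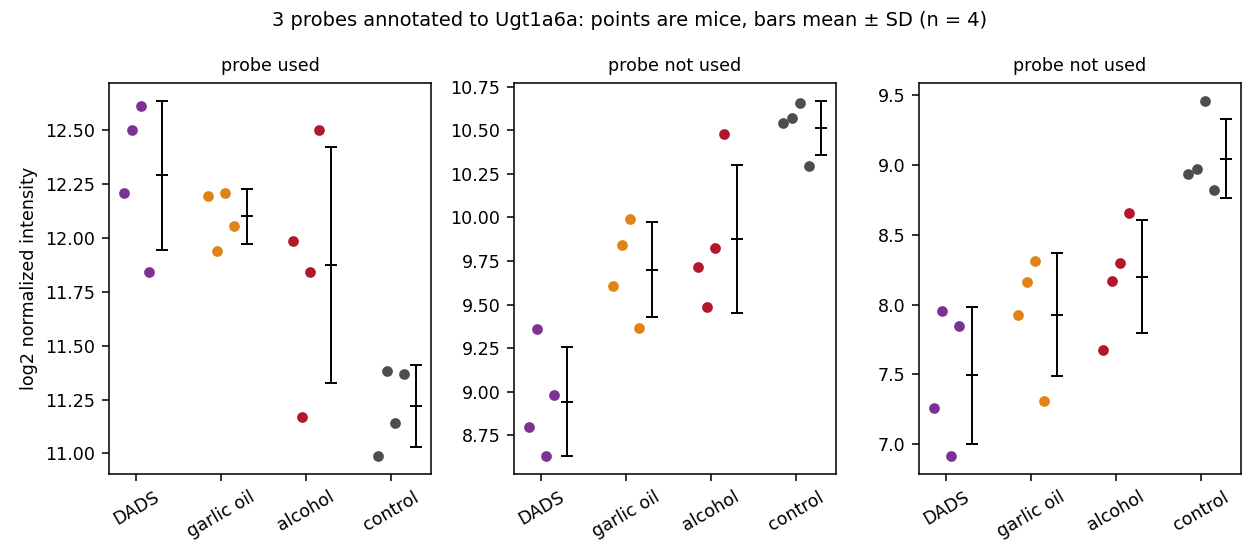
Log2 normalized intensity of the 3 detected probes annotated to Ugt1a6a on each array (points, 1 per mouse) by group, with mean ± SD (n = 4 each). In the left panel DADS and garlic oil livers lie above control livers, and in the middle and right panels they lie lower than control livers.

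Among the SULT genes, Sult1a1 rose against control by a log2 change of 0.83 with DADS (adjusted p = 0.0035) and 0.90 with garlic oil (adjusted p = 0.00183). Sult1d1 rose by 0.88 with DADS (adjusted p = 0.0178) and 0.98 with garlic oil (adjusted p = 0.00863) on the same scale. Sult2a8, a mouse liver enzyme that sulfates bile acids, went down. It had log2 levels of 11.72, 11.27, 12.53 and 13.23 in DADS livers, 12.65, 12.90, 12.84 and 12.87 in garlic oil livers, 12.97, 13.26, 13.04 and 12.42 in alcohol livers, and 13.47, 13.22, 13.38 and 13.33 in control livers. The DADS arrays were widely spread, with replicate 4 inside the control range and the other 3 below it. The log2 change against control was -1.16 ± 0.29 with DADS (SE, adjusted p = 0.0136) and -0.53 with garlic oil (adjusted p = 0.22), where the groups did not overlap.

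Among the CES genes, 3 of the CES1 group, which hydrolyses drug and lipid esters, were higher. Ces1c, the esterase secreted into mouse plasma, had log2 levels of 14.83, 14.93, 14.65 and 14.02 in DADS livers, 14.77, 14.32, 14.84 and 14.80 in garlic oil livers, 14.13, 13.43, 14.20 and 14.53 in alcohol livers, and 13.96, 13.48, 13.88 and 13.78 in control livers. Both garlic-treated groups lay above the controls, and the alcohol arrays overlapped all 3 other groups. The log2 change against control was 0.83 with DADS (adjusted p = 0.0176) and 0.91 with garlic oil (adjusted p = 0.0101). A second Ces1c probe gave 0.96 with DADS (adjusted p = 0.0891) and 1.14 with garlic oil (adjusted p = 0.0444).

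Ces1b, its neighbour, had log2 levels of 12.68, 13.14, 12.82 and 11.41 in DADS livers, 12.77, 11.92, 13.26 and 12.64 in garlic oil livers, 12.17, 10.70, 11.76 and 12.90 in alcohol livers, and 11.65, 10.88, 11.56 and 11.41 in control livers. Spread was large in all ethanol-fed groups, and DADS replicate 4 sat inside the control range. The log2 change was 1.27 ± 0.41 with garlic oil (SE, 2.41-fold, adjusted p = 0.0397) and 1.14 with DADS (adjusted p = 0.0667). Over the 16 arrays Ces1b and Ces1c were each among the 3 genes most like the other, at a Pearson r of 0.962, and 0.958 after each group's mean was taken out. They are close relatives in sequence, and cross-reading of their probes was not tested.

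Ces1g, an esterase tied to liver lipid handling in mice, had log2 levels of 9.22, 8.88, 10.09 and 9.18 in DADS livers, 9.41, 9.44, 9.06 and 9.95 in garlic oil livers, 8.68, 9.19, 9.06 and 9.55 in alcohol livers, and 8.21, 8.13, 8.80 and 8.76 in control livers. The garlic-treated groups lay above the controls, at a log2 change of 0.87 with DADS (adjusted p = 0.0282) and 0.99 with garlic oil (adjusted p = 0.0139). Ces2e was higher than in controls by a log2 change of 0.88 with DADS (adjusted p = 0.00425) and 0.98 with garlic oil (adjusted p = 0.00184). Ces2a was higher by 0.59 with DADS (adjusted p = 0.0387) and 1.10 with garlic oil (adjusted p = 0.000883). Ces3b was lower by a log2 change of -2.02 ± 0.25 with DADS (SE, 4.07-fold, adjusted p = 6.78e-05), the largest change of the 26 genes in any of the 6 comparisons, and by -0.33 with garlic oil (adjusted p = 0.377).

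Leaving out 1 array ended some of these calls. Other settings that ended a call are not all listed here, and an adjusted p in brackets is the highest over all 25 settings. In DADS against control, 7 genes passed without control replicate 2 (Ces2e, Ces3b, Sult1a1, Sult1d1, Sult2a8, Ugt1a6a and Ugt3a1). In garlic oil against control, 7 passed without control replicate 2 and 7 without garlic oil replicate 1. Ces2a with DADS missed the threshold under 11 of 25 settings, among them leaving out any 1 DADS or control array, no background correction and no filter on low values (log2 change 0.35 to 0.77 over 25 settings, highest adjusted p 0.105), and Ces1b with garlic oil without any 1 control array or garlic oil replicate 1, 3 or 4 (highest adjusted p 0.114). Ces1c with DADS missed it without DADS replicate 1 or 2 or control replicate 2 (highest adjusted p 0.06), Ces1g with DADS without DADS replicate 3 or control replicate 1 or 2 (0.0908) and Ugt2b1 with DADS without DADS replicate 3 or control replicate 2 or 3 (0.069). Ugt2b35 missed it with DADS without DADS replicate 1 or 2 or control replicate 2 or 4 (0.0794), and with garlic oil without garlic oil replicate 1 or 3 or control replicate 2 or 4 (0.079). Sult1d1 with DADS missed it without control replicate 1 (0.053). With garlic oil, Ces1g missed it without garlic oil replicate 4 or control replicate 2 (0.0512), Ugt2b34 without garlic oil replicate 1 or control replicate 2 (0.0652), and Ugt3a1 without garlic oil replicate 1, 2 or 4 or control replicate 1 or 3 (0.115).

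12 of the 26 genes passed in no comparison. Ugt2b36, another UGT2B gene, had log2 levels of 14.97, 14.85, 14.54 and 14.85 in DADS livers, 14.96, 14.65, 14.89 and 14.87 in garlic oil livers, 14.49, 14.53, 14.68 and 14.83 in alcohol livers, and 14.59, 14.56, 14.61 and 14.41 in control livers. The garlic oil arrays lay just above the controls at a log2 change of 0.30 (adjusted p = 0.0956), and a second probe gave 0.60 (adjusted p = 0.022). Ugt1a2 had log2 levels of 7.53, 8.05, 7.80 and 7.48 in DADS livers, 7.64, 7.60, 8.29 and 7.04 in garlic oil livers, 7.84, 7.52, 7.85 and 8.73 in alcohol livers, and 7.95, 8.56, 7.92 and 8.17 in control livers, with all groups overlapping. Ugt1a10 had 13.98, 14.21, 13.88 and 13.41 in DADS livers, 13.90, 13.89, 13.85 and 13.52 in garlic oil livers, 13.79, 13.67, 13.99 and 14.40 in alcohol livers, and 13.64, 13.83, 13.76 and 13.71 in control livers, again with overlap.

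Sult1c2 had log2 levels of 8.21, 8.13, 7.76 and 8.30 in DADS livers, 8.10, 7.24, 7.98 and 8.68 in garlic oil livers, 7.67, 7.99, 8.30 and 7.79 in alcohol livers, and 6.93, 7.69, 8.08 and 7.18 in control livers. Its log2 change was 0.63 for DADS against control (adjusted p = 0.12), with overlap. Sult5a1 had log2 levels of 7.06, 7.82, 7.86 and 7.42 in DADS livers, 7.74, 8.12, 8.25 and 8.72 in garlic oil livers, 8.71, 7.65, 7.82 and 7.15 in alcohol livers, and 7.90, 8.03, 7.99 and 8.09 in control livers. Its DADS arrays lay just below the controls at a log2 change of -0.46 (adjusted p = 0.255).

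Ces1e had log2 levels of 9.42, 9.41, 10.15 and 9.70 in DADS livers, 10.22, 9.98, 10.21 and 10.87 in garlic oil livers, 10.38, 9.60, 9.61 and 9.69 in alcohol livers, and 10.32, 9.95, 10.04 and 9.80 in control livers. DADS and garlic oil arrays overlapped at DADS replicate 3. Ces1f had log2 levels of 13.49, 13.20, 13.03 and 13.66 in DADS livers, 13.42, 12.82, 13.07 and 13.15 in garlic oil livers, 13.52, 13.57, 13.43 and 13.23 in alcohol livers, and 13.40, 13.40, 13.35 and 13.16 in control livers. Ces2g had log2 levels of 9.38, 9.16, 9.40 and 9.76 in DADS livers, 9.25, 9.68, 9.46 and 9.59 in garlic oil livers, 9.39, 9.86, 9.70 and 9.21 in alcohol livers, and 8.89, 9.13, 9.31 and 9.12 in control livers. By the probe used, its alcohol mean lay above its control mean, with overlap of 1 alcohol array and the control range.

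The remaining 4 genes showed no adjusted p under 0.2 in any comparison. They were Ces1d, the triacylglycerol hydrolase of hepatocytes, with log2 changes between -0.10 and 0.27 over the 6 comparisons, Ugt2a3 with -0.14 to 0.22, Ugt3a2 with -0.07 to 0.20 and the barely detected Ces1a. The 14 genes that missed the filter were Ugt2a1, Ugt2a2, Ugt2b5, Ugt2b37 and Ugt2b38 of the UGT family, Sult1b1, Sult1c1, Sult1e1, Sult2a6, Sult2b1, Sult3a1 and Sult4a1 of the SULT family, and Ces2b and Ces4a of the CES family. For 12 of them no probe was detected on any array, the exceptions being Ugt2b5 on 1 alcohol array and Sult2b1 on 1 DADS and 2 garlic oil arrays.

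Genes that supply the conjugation donors were listed by function, and 10 of the 13 passed. None of the 10 changed in alcohol against control, against 3.58% of all genes tested. An unadjusted p under 0.05 was held by 3 of the 10 and by 18.1% of all genes. Papss2, 1 of the 2 PAPS synthases that make the sulfate donor, had log2 levels of 6.52, 6.77, 6.52 and 6.51 in DADS livers, 6.95, 7.16, 7.38 and 7.44 in garlic oil livers, 6.73, 6.30, 6.45 and 6.65 in alcohol livers, and 6.25, 6.08, 6.50 and 6.40 in control livers. The garlic oil arrays lay above the other 12. The log2 change was 0.70 against alcohol (adjusted p = 0.0177), 0.65 against DADS (adjusted p = 0.0248) and 0.93 against control (adjusted p = 0.000381).

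Papss1, the other PAPS synthase, went the opposite way. Its log2 levels lay between 7.22 and 7.65 in DADS livers, 6.91 and 7.43 in garlic oil livers, 7.81 and 8.12 in alcohol livers, and 7.60 and 7.87 in control livers. The alcohol arrays lay above both garlic-treated groups, at a log2 change of -0.81 with garlic oil (adjusted p = 0.00942) and -0.54 with DADS (adjusted p = 0.0495). Garlic oil was also below control at -0.58 (adjusted p = 0.0102).

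On the glucuronidation side, Ugp2, which makes UDP-glucose, was higher than in controls by a log2 change of 0.88 with DADS (adjusted p = 0.000852) and 0.77 with garlic oil (adjusted p = 0.00186). Slc35d1, a carrier of UDP-glucuronic acid into the endoplasmic reticulum, was higher with DADS than with alcohol alone by 0.54 (adjusted p = 0.0484). Slc35b1, a nucleotide carrier of that membrane, was lower with DADS by -0.60 against alcohol (adjusted p = 0.0239) and -1.07 against control (adjusted p = 6.78e-05). It was lower with garlic oil by -0.74 against control (adjusted p = 0.00129), and its part in glucuronidation was not tested. Ugdh, which makes UDP-glucuronic acid, missed the filter. In all, 1 of the 10 rose and 2 fell in DADS against alcohol, 1 rose and 1 fell in garlic oil against alcohol, and 1 rose in garlic oil against DADS. These are 30%, 20% and 10% of the 10, against 2.84%, 2.02% and 1.85% of all genes tested. Against control, 1 rose and 1 fell with DADS (20% against 15.9% of all genes), and 2 rose and 2 fell with garlic oil (40% against 17.9%). The Papss1 and Slc35d1 calls of DADS against alcohol were lost under 17 and 16 of 25 settings, and without alcohol replicate 1 their adjusted p was 0.0895 and 0.077. Without that array the calls of Slc35b1 with DADS, and of Papss1 and Papss2 with garlic oil, against alcohol held (highest adjusted p 0.0432). Slc35b1 with DADS against alcohol missed the threshold without DADS replicate 4 or alcohol replicate 3, under median scaling and with the compared groups alone (highest adjusted p 0.0883 over all settings). Papss2 missed it against alcohol without garlic oil replicate 4 or alcohol replicate 2 or 3 and with the compared groups alone (0.1). Against DADS it missed it without DADS replicate 1, 3 or 4 or garlic oil replicate 3 or 4, under median scaling and with the compared groups alone (0.0873). Papss1 with garlic oil missed it under the mean of its passing probes, both against alcohol and against control. It also missed it against alcohol with the compared groups alone (highest adjusted p 0.0707) and against control under median scaling (highest adjusted p 0.121).

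Of 19 listed enzymes that hydrolyse conjugates or esters outside the CES families, 14 passed. Aadac, a liver esterase of the endoplasmic reticulum, had log2 levels of 8.48, 8.90, 9.01 and 8.33 in DADS livers, 9.69, 9.16, 10.09 and 10.35 in garlic oil livers, 9.47, 8.02, 9.06 and 9.24 in alcohol livers, and 8.47, 8.02, 8.47 and 8.14 in control livers. The garlic oil arrays lay above DADS at a log2 change of 1.14 (adjusted p = 0.0458), a call lost under 17 of 25 settings, and above control at 1.55 (adjusted p = 0.00151). Mgll, the monoglyceride lipase, was lower than in controls by -0.82 with DADS (adjusted p = 0.00412) and -0.89 with garlic oil (adjusted p = 0.00204) on the log2 scale. Against control, Pon3, a lactonase, was higher by 0.77 with DADS (adjusted p = 0.00836), Ephx1, the microsomal epoxide hydrolase, higher by 0.66 with DADS (adjusted p = 0.0266) and Ephx2, the soluble one, lower by -0.56 with garlic oil (adjusted p = 0.0345).

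Arsb, a lysosomal sulfatase, was lower than with alcohol alone by a log2 change of -0.64 with DADS (adjusted p = 0.0274) and -0.62 with garlic oil (adjusted p = 0.0407). These calls were lost under 7 and 16 of 25 settings, and without alcohol replicate 1 the adjusted p was 0.0526 with DADS and 0.0702 with garlic oil. The DADS call was also lost without DADS replicate 2 or 3 or alcohol replicate 2 or 3, under median scaling and with the compared groups alone (highest adjusted p 0.1). The garlic oil call was also lost without any 1 garlic oil or control array or alcohol replicate 2 or 3, among other settings (0.136). Against control, Ephx1 missed the threshold without DADS replicate 1 or 2 or control replicate 1, 2 or 3 and with no filter (0.087). Ephx2 missed it without garlic oil replicate 2, 3 or 4 or any 1 control array, under median scaling and with no filter (0.0993). Of the 14, none changed in alcohol against control (3.58% of all genes tested), and 5 had an unadjusted p under 0.05 (18.1% of all genes). In each of DADS against alcohol, garlic oil against alcohol and garlic oil against DADS 1 changed. This is 7.14%, against 2.84%, 2.02% and 1.85% of all genes. Against control, 2 rose and 1 fell with DADS (21.4% against 15.9% of all genes), and 2 rose and 2 fell with garlic oil (28.6% against 17.9%).

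Of 12 listed carriers that move conjugates and organic anions across the hepatocyte membrane, 9 passed, and the uptake carrier Slco1a4 changed most. It had log2 levels of 8.18, 7.02, 7.49 and 7.54 in DADS livers, 8.69, 8.50, 9.30 and 9.12 in garlic oil livers, 7.44, 6.92, 7.24 and 6.78 in alcohol livers, and 7.61, 7.62, 7.36 and 6.96 in control livers. The garlic oil arrays lay above the other 12. The log2 change with garlic oil was 1.81 ± 0.23 against alcohol (SE, 3.50-fold, adjusted p = 0.00104), 1.34 against DADS (adjusted p = 0.00771) and 1.51 against control (adjusted p = 0.000482), and these 3 calls held under all 25 settings (1.93 against alcohol without alcohol replicate 1).

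Abcc3, which exports glucuronides to blood, had log2 levels of 11.67, 12.12, 12.01 and 11.71 in DADS livers, 11.75, 12.11, 12.11 and 12.10 in garlic oil livers, 11.18, 11.30, 11.51 and 11.62 in alcohol livers, and 11.13, 11.13, 11.15 and 11.38 in control livers. All 8 arrays of garlic-treated mice lay above the other 8. The log2 change was 0.62 for garlic oil against alcohol (adjusted p = 0.037), 0.82 for garlic oil against control (adjusted p = 0.00094) and 0.68 for DADS against control (adjusted p = 0.00378). The call against alcohol was lost under 9 of 25 settings (highest adjusted p 0.124), among them leaving out alcohol replicate 1 (log2 change 0.54, adjusted p = 0.0751), alcohol replicate 2 or 3, garlic oil replicate 2, 3 or 4, or control replicate 2 or 3. Against control, the bile-side exporter Abcc2 was higher with garlic oil by 0.73 (adjusted p = 0.0135), and the uptake carrier Slc22a7 was lower with DADS, at a mean of 6.97 in DADS livers and 7.96 in control livers (adjusted p = 0.00247). Slco1a1, detected on 1 DADS and 3 control arrays, was lower with DADS by -0.73 (adjusted p = 0.0373). This call was lost without DADS replicate 1, 2 or 3 or control replicate 2 or 3 and with no filter (highest adjusted p 0.113). The Abcc2 call was lost without control replicate 2 and under the mean of its passing probes (highest adjusted p 0.0807 over all settings). No carrier passed in alcohol against control or DADS against alcohol, against 3.58% and 2.84% of all genes tested. An unadjusted p under 0.05 was held by 0 and 3 carriers there, and by 18.1% and 18.4% of all genes. With garlic oil, 2 rose against alcohol (22.2% against 2.02% of all genes) and 1 against DADS (11.1% against 1.85%). Against control, 1 rose and 2 fell with DADS (33.3% against 15.9%), and 3 rose with garlic oil (33.3% against 17.9%).

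Of 12 listed conjugating enzymes of other kinds (methyl-, acetyl- and acyltransferases and the glutathione transferase Mgst1), 9 passed the filter and none changed in any of the 6 comparisons (limma, adjusted p under 0.05). Of all genes tested, 1.85% to 17.9% changed in a comparison. Between 0 and 3 of the 9 had an unadjusted p under 0.05, against 16.8% to 32.5% of all genes, and at most 2 passed under any alternative setting. Over the 6 comparisons the median log2 change lay between -0.05 and 0.18 for these enzymes, -0.07 and 0.16 for donor supply, -0.08 and 0.10 for hydrolysis, 0.02 and 0.54 for the carriers, -0.06 and 0.30 for the regulators and -0.04 and 0.02 for all genes.

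Of 14 listed transcription factors known to act on these genes, 10 passed. Nr1i3, the xenobiotic receptor CAR, had log2 levels of 10.85, 11.07, 11.48 and 11.29 in DADS livers, 10.76, 11.07, 11.40 and 11.40 in garlic oil livers, 10.63, 9.95, 10.33 and 10.65 in alcohol livers, and 10.84, 11.08, 10.71 and 10.87 in control livers. The alcohol arrays were the lowest, and the log2 change against alcohol was 0.78 with DADS (adjusted p = 0.0329) and 0.77 with garlic oil (adjusted p = 0.0425). Ppara, the fatty acid receptor PPAR alpha, had 6.96, 7.39, 6.92 and 7.10 in DADS livers, 7.09, 6.84, 6.79 and 6.91 in garlic oil livers, 6.50, 6.04, 6.32 and 6.22 in alcohol livers, and 6.34, 7.02, 6.43 and 6.78 in control livers. Its log2 change against alcohol was 0.82 with DADS (adjusted p = 0.0123) and 0.64 with garlic oil (adjusted p = 0.0451).

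Against control, Nr1i2, the receptor PXR, was higher with garlic oil by a log2 change of 0.60 (adjusted p = 0.00224), and so was Hnf4a by 0.58 (adjusted p = 0.00767). Esr1, the oestrogen receptor alpha, was higher with DADS by 1.04 (adjusted p = 0.015), detected on 4 DADS and 2 control arrays. Of the 10 regulators, none changed in alcohol against control or in garlic oil against DADS, against 3.58% and 1.85% of all genes tested. An unadjusted p under 0.05 was held by 3 and 2 of them there, and by 18.1% and 16.8% of all genes. Against alcohol 2 rose with each preparation, 20% against 2.84% of all genes with DADS and 2.02% with garlic oil. Against control 1 rose with DADS (10% against 15.9%) and 2 with garlic oil (20% against 17.9%). The garlic oil calls of Nr1i3 and Ppara against alcohol were lost under 13 and 17 of 25 settings, and the DADS call of Nr1i3 under 6, among them leaving out DADS replicate 3 or 4 or alcohol replicate 2 or 3 (highest adjusted p 0.0944). Without alcohol replicate 1 all 4 calls against alcohol held (highest adjusted p 0.0487). Esr1 missed the threshold without control replicate 1 or 2 (0.0527).

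**Figure D5:**
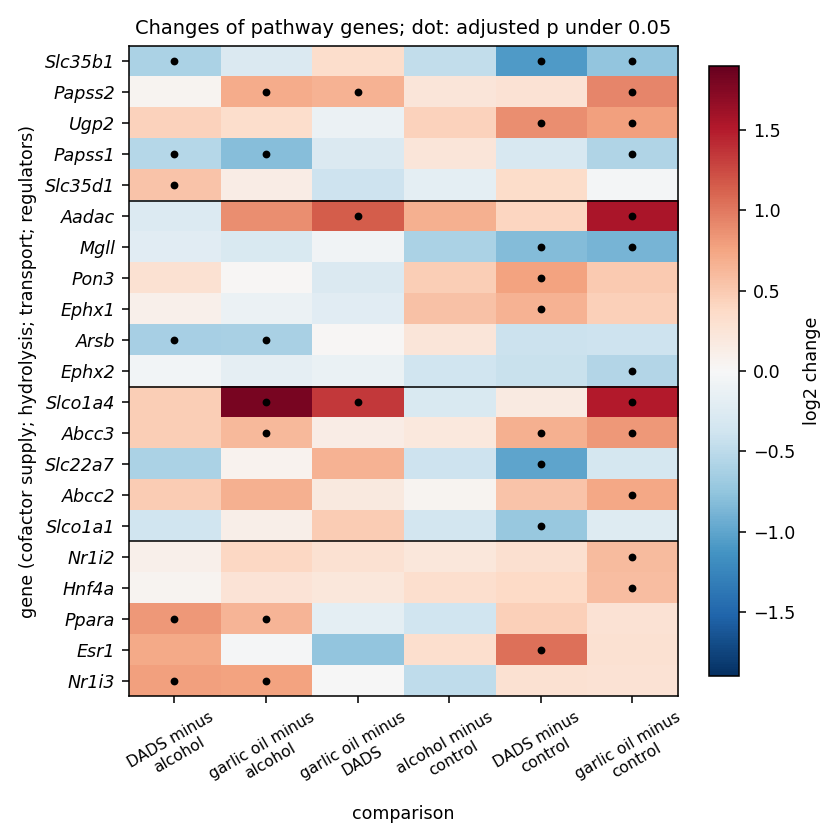
Log2 change (colour) of 21 donor-supply, hydrolysis, transport and regulator genes (rows) in the 6 comparisons (columns), with a dot where the limma adjusted p was under 0.05. Slco1a4 and Papss2 carry dots in all 3 garlic oil columns, and the alcohol minus control column carries 0 dots.

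For each changed gene the most similar profiles over the 16 arrays were looked up in the whole table, as a description, since the arrays share group, chip and position. Ces3b was most like Mup5, a major urinary protein (Pearson r = 0.949), Alas2, the haem synthesis gene that is also a red cell marker above (r = 0.917), and Car3, a carbonic anhydrase (r = 0.917). These values were 0.752, 0.570 and 0.634 once group means were taken out. Sult1a1 was most like Akr1d1, a steroid reductase of bile acid synthesis (r = 0.915), and Sult1d1 was too (r = 0.874). Ces2e was most like Mocos (r = 0.914), Ces2a most like Ell2 (r = 0.893) and Ugt3a1 most like H4c8 (r = 0.921).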

How the data were processed

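Total RNA of 16 livers was labelled with biotin and read on 1-colour Illumina BeadChips. For 25697 probes, each array's file gives an average bead intensity, deposited in linear units without normalization, and a deposited detection p-value, per the file headers. A series-wide table has intensity that the authors normalized, which ranked the probes of each array as its own signal does (Spearman correlation 1). GenomeStudio, lumi and limma are named, per the submitters' processing notes. Signals were corrected and quantile-normalized here with limma 3.58.1 in R 4.3.3 (neqc, offset 16) and put on the log2 scale. The filter asked for detection (p under 0.05) on 4 or more arrays, and the probe of highest mean stood for its gene (8386 genes). Symbols come from the array annotation, and 23962 of 23978 named probes matched a RefSeq gene. No chip block could be fitted across chips.

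Groups were compared by limma, all arrays in a single model of the 4 groups with 12 residual degrees of freedom, using two-sided moderated tests and Benjamini-Hochberg adjustment over all 8386 genes. Log2 levels are normalized and set no probe against another. An SE comes from this fit, and a SD from the arrays of a group. The members and the pathway lists were chosen with earlier results of these data known. Values by array are given for each member that passed in any comparison and for up to 3 others per family by smallest p, and pathway genes are named where they passed, at most 6 per list. The script was tested on simulated data. The alternatives were the authors' table, no background correction, median scaling, no filter, detection on at least 8 arrays, the mean of passing probes, a replicate block, array weights, the compared groups alone, and leaving out each array (25 settings per comparison). Replicate numbers were not treated as pairs in the main fit. Over 24 pairs of groups' arrays the deviations correlated at -0.37 to 0.40, 7 of them over 0.1. In alcohol against control, each alcohol array correlated best with the control array of its own number, at 0.008 to 0.20. Pairing in that comparison was therefore not excluded.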

Additional observations from a re-analysis of the deposited data

Results flagged for a closer look

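Among 104 groups of 4 arrays (26 genes in 4 groups), 5 held an array far from the other 3, where chance gives about 1 in 20. Ces1c read 14.32 in garlic oil replicate 2, below 14.77 to 14.84 on the others. Ces1e read 10.38 in alcohol replicate 1, the array with acinar markers, above 9.60 to 9.69. Ces2a read 7.25 in DADS replicate 1, above 6.90 to 6.94, and 6.52 in control replicate 2, above 6.37 to 6.39. Ugt1a10 read 13.52 in garlic oil replicate 4, below 13.85 to 13.90.

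The response to garlic oil and to DADS, each against alcohol, differed for 4 genes, as tested by garlic oil minus DADS on the log2 scale: Ces3b by 1.69 (adjusted p = 0.00205), Slco1a4 by 1.34 (adjusted p = 0.00771), Papss2 by 0.65 (adjusted p = 0.0248) and Aadac by 1.14 (adjusted p = 0.0458). These were 1 of the 26 genes, 1 of 10 for donor supply, 1 of 14 for hydrolysis and 1 of 9 carriers, beside 1.85% of all genes tested. None of the 9 other conjugating enzymes or 10 regulators differed. The Papss2 and Aadac calls were lost under 7 and 17 of 25 settings. Doses differ between these groups.

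Sult2b1, a sterol sulfotransferase that missed the filter, was detected on 2 garlic oil arrays and on 0 control arrays.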

How the results depend on the processing

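Of 3894 values of the 26 genes under alternatives, 3799 kept their side of the threshold, with the same direction where they passed it. A change of sign in a value short of the threshold counted as kept. Ces1e in DADS against alcohol, for example, went from -0.15 to 0.04 without alcohol replicate 1. Of the other values, 33 moved past the threshold, 60 fell short of it and 2 calls reversed direction. Both reversals were Ugt1a6a under the mean of its passing probes, -0.69 for DADS against control (adjusted p = 0.0175) and -0.35 for garlic oil against control (adjusted p = 0.19), where 2 of the 3 averaged probes point down. Of 28 calls, 13 held under all 25 settings and 0 were lost under most. Of 37 calls of named pathway genes, 18 held under all settings and 6 were lost under most.

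In alcohol against control 5 of the 26 genes passed with array weights, which added Ugt1a6a and Ugt2b35, and 1 to 4 with 1 array left out, 1 without control replicate 1, control replicate 3 or alcohol replicate 3. In DADS against alcohol 3 passed with median scaling, 2 with a replicate block and 1 to 3 with 1 array left out. In garlic oil against alcohol 1 passed with no background correction, 1 with median scaling and 1 with a replicate block, each time Sult1a1, and 0 to 1 with 1 array left out. In garlic oil against DADS 1 to 2 passed with 1 array left out, in DADS against control 7 to 13 and in garlic oil against control 7 to 11. The replicate block moved no other count of the 26 genes by over 1.5 times, and in 9 of 24 pairs an array correlated best with its own number. With the block Sult1a1 passed against alcohol with DADS (adjusted p = 0.0484) and garlic oil (0.0435), and Ces2a missed the threshold in DADS against control (0.0552). Papss1 (0.0526) and Slc35d1 (0.0537) missed it in DADS against alcohol, and Arsb (0.0644), Ppara (0.0644) and Nr1i3 (0.053) in garlic oil against alcohol. It changed no other call named here. The causes were not tested.

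Median scaling moved the median of all genes to 0.18 on the log2 scale in DADS against alcohol and against control. It turned the share of higher calls among all genes to 87.2% from 43.3% in DADS against alcohol, and to 73.4% from 34.3% in garlic oil against alcohol. The share was 19.4% in place of 40% in garlic oil against DADS, 87.3% in place of 53.3% in DADS against control, and 74.6% in place of 48% in garlic oil against control. Counts over all genes ranged over the settings at 132 to 669 (300 as reported) for alcohol against control, 61 to 775 (238) for DADS against alcohol, 26 to 215 (169) for garlic oil against alcohol, 39 to 237 (155) for garlic oil against DADS, 879 to 1996 (1335) for DADS against control and 903 to 1824 (1497) for garlic oil against control. With 4 arrays a group, the number of arrays limits what could pass.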
